A study of Mus musculus with 16 samples.

Results

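The 10 genes described here encode parts of the machinery with which aortic cells sense and bear mechanical load. They were taken by symbol from a table of 52636 genes, and all 10 were found and had enough reads to be tested. They are the stretch-activated channel Piezo1, the focal adhesion kinase gene Ptk2, the transcriptional co-activators Yap1 and Wwtr1 (which encodes TAZ), their target Ankrd1, the adhesion proteins vinculin (Vcl) and zyxin (Zyx), and the actin crosslinkers alpha-actinin-1 (Actn1), filamin A (Flna) and filamin C (Flnc). RNA was sequenced from whole descending thoracic aorta of inbred mice in a design crossing strain with treatment. The groups were C57BL/6J with hypertension induced by angiotensin II (AngII), C57BL/6J control, 129S6/SvEvTac with AngII, and 129S6/SvEvTac control, with 4 libraries in each. AngII is the vasoconstrictor peptide of the renin-angiotensin system. The sources used here give neither its dose and duration nor the age and sex of the mice. The labels do not say that the libraries of a group came from separate animals, so p-values measure the spread between these libraries, which may be technical.

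Vascular smooth muscle cells are anchored to the matrix through integrins, whose inner ends gather talin, vinculin, zyxin and the focal adhesion kinase. Alpha-actinin and filamins tie these sites to the actin cytoskeleton, and tension on them changes which proteins are bound. Load also opens Piezo1, which lets calcium in, and lets the proteins YAP and TAZ enter the nucleus, where they act with TEAD factors that bind DNA at the core letters GGAATG. Ankrd1 and Ccn2 are textbook targets of that complex. The genes of contractile and adhesion proteins are in addition driven by serum response factor, which binds the CArG box.

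The libraries held 42116120 to 61381134 counts, except 129S6/SvEvTac AngII replicate 5 with 121573945. Levels are given as CPM, counts scaled so that every library has the same adjusted total, and 17125 genes were tested with edgeR's quasi-likelihood test with Benjamini-Hochberg adjustment over all of them, a gene being called at an adjusted p below 0.05. The tissue label was borne out by 8 smooth muscle markers, which were detected in every library. Their summed level was 13233 to 31336 CPM in C57BL/6J AngII libraries against 41231 to 44739 CPM in C57BL/6J controls, and 38386 to 48299 CPM in 129S6/SvEvTac AngII libraries against 40627 to 44006 CPM in 129S6/SvEvTac controls. With AngII, 7 of the 8 fell in C57BL/6J and none was called in 129S6/SvEvTac. In C57BL/6J 8 of 8 macrophage markers rose (991 to 1897 CPM summed with AngII, against 337 to 453 CPM in controls), as did 9 of 10 adipocyte markers (192 to 4101 CPM with AngII, against 115 to 355 CPM in controls). Of 8 fibroblast markers 4 rose and 1 fell there, and 2 of 8 endothelial markers rose. These counts compare with 21.8% of all tested genes called higher and 17.1% lower in C57BL/6J. Summed endothelial markers were 850 to 1093 CPM with AngII there, against 1002 to 1271 CPM in controls. In 129S6/SvEvTac no marker of macrophages or adipocytes was called, and 2 of 8 fibroblast and 2 of 8 endothelial markers rose. Of all tested genes 7.71% were called higher and 4.47% lower in that strain. In bulk tissue, fewer cells of a type and less RNA per cell cannot be told apart. The part of these shifts in the changes described below was not tested. Among 22 striated muscle markers, summed levels stood at 251 CPM in C57BL/6J AngII replicate 1, 587 CPM in 129S6/SvEvTac AngII replicate 5 and 364 CPM in 129S6/SvEvTac control replicate 3. The other libraries held 24.5 to 115 CPM. The heart isoforms Myh6 (up to 293 CPM) and Actc1 (up to 83 CPM) were detected in all 16 libraries, whereas the fast skeletal genes Myh4 and Pvalb were at 0 in all 16. By detection alone, other markers went the other way. The heart gene Myl2 was at 0 in 15 libraries, and the skeletal genes Mylpf, Tnnt3, Actn3 and Neb were at 0 in none. Their levels were low in the 3 libraries just named. In that order Mylpf had 0.422, 0.437 and 0.359 CPM, and Tnnt3 0.865, 0.908 and 1.08 CPM. Actn3 had 0.623, 1.41 and 0.443 CPM there, and Neb 1.83, 2.38 and 0.76 CPM. Myh6 had 82.1, 293 and 142 CPM in the same libraries. Which striated muscle this RNA came from was not tested.

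To show where the TEAD core occurs next to these genes, RefSeq promoter windows (GRCm38.p6) running from 250 bases before to 50 after each annotated start were searched for GGAATG on both strands, which reads CATTCC where it lies on the other strand. Of the 10 genes, 9 had a window, and 6 of these 9 held the core, against 14.7% of all 32851 windows and 16.6% of the 27025 genes with one. The 30-base stretches around it follow, 5′ to 3′ on the gene's own strand, with the core in capitals. The last line shows the single CArG box, in Vcl, also in capitals. That motif was present in 1.63% of all windows.
Yap1, chr9:8004720-8004749, minus strand: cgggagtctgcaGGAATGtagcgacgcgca
Wwtr1, chr3:57576029-57576058, minus strand: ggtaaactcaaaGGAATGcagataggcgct
Ankrd1, chr19:36120037-36120066, minus strand: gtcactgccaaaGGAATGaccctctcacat
Ankrd1, chr19:36119950-36119979, minus strand: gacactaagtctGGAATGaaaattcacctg
Vcl, chr14:20929243-20929272, plus strand: gcccctcccttgGGAATGggggcggggcgg
Flna, chrX:74246663-74246692, minus strand: ggcgttgtggggCATTCCaacgggaggggc
Flnc, chr6:29433140-29433169, plus strand: cgggccgggcggCATTCCtgggaggccggc
Vcl CArG box, chr14:20929161-20929190, plus strand: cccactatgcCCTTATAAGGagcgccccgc

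The core lay 141 bases before the start in Yap1, 136 or 170 in Wwtr1, which has a pair of annotated starts, 210 and 123 in Ankrd1, 143 in Vcl and 146 in Flna. Flnc also has a pair of starts. The core lay 104 bases before one, and began 1 base before the other and ran across it. Distances are to the first letter of the motif. The Vcl CArG box lay 227 bases before the start. All these starts are those of RefSeq. The gene spans printed below come from GENCODE, another annotation, and those of Ankrd1 and Flna include the cores shown for these genes. Neither motif's letters were in the windows of Piezo1, Zyx and Actn1. A match is a string of letters and not a shown binding site, and no binding was measured here.

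**Figure D1:**
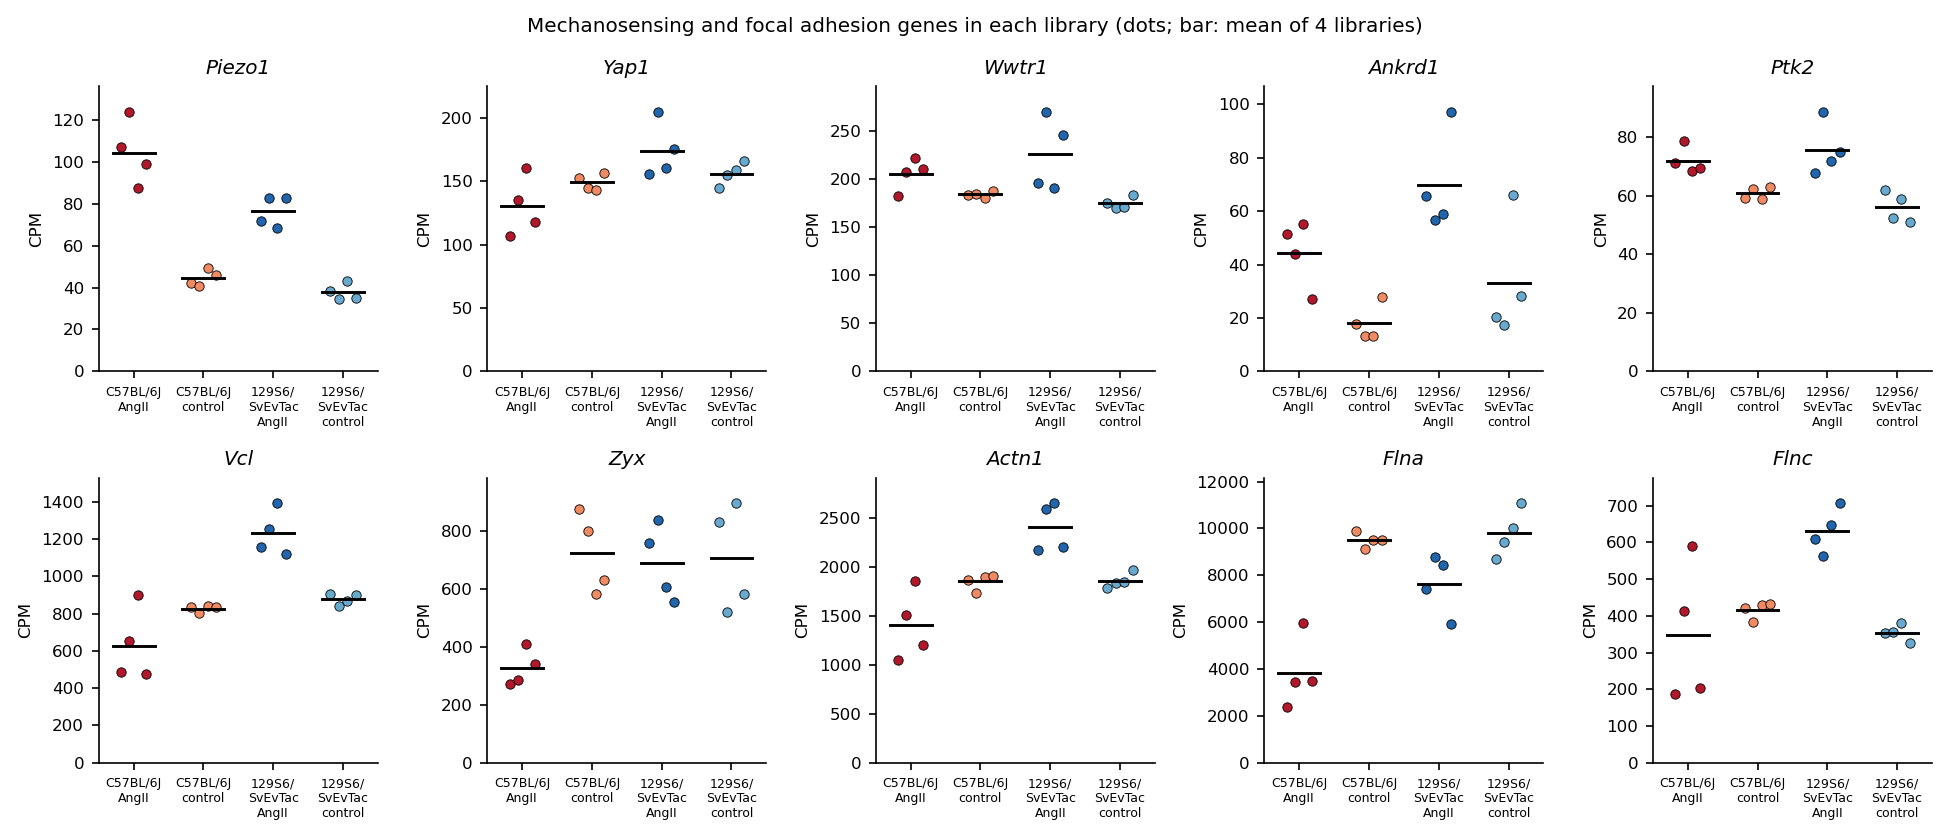
Level in CPM of each of the 10 genes in every library (dots), with the mean of the 4 libraries of a group as a bar. Piezo1 is higher in all AngII libraries of both strains (68.7 to 124 CPM) than in all control libraries (34.7 to 49.4 CPM), while Flna and Zyx are low in the 4 C57BL/6J AngII libraries.

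The first question was what AngII hypertension did to these genes in each strain. In C57BL/6J, Piezo1, Ankrd1 and Ptk2 rose, Zyx, Flna and Actn1 fell, and the other 4 were not called. These 6 of 10 compare with 38.9% of all tested genes called in that strain (21.8% higher and 17.1% lower). In 129S6/SvEvTac, Piezo1, Wwtr1 and Ptk2 rose and none fell, 3 of 10 against 12.2% of all genes (7.71% higher and 4.47% lower). The median log2 fold change over the 10 genes was -0.23 in C57BL/6J and 0.40 in 129S6/SvEvTac, against 0.009 and 0.003 over all genes tested.

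Piezo1 (ENSMUSG00000014444, chr8:122481698-122551329, minus strand), which encodes a cation channel opened by membrane tension, had 107, 124, 87.5 and 99 CPM in C57BL/6J AngII replicates 1, 2, 3 and 5, against 42.1, 40.8, 49.4 and 46 CPM in C57BL/6J control replicates 1, 2, 3 and 5. Piezo1 had 71.6, 83, 68.7 and 82.8 CPM in 129S6/SvEvTac AngII replicates 1, 2, 4 and 5, against 38.6, 34.7, 43.1 and 34.8 CPM in 129S6/SvEvTac control replicates 1, 2, 3 and 4. The other genes follow in the same order of replicates. Every AngII library lay above every control library in both strains. It rose 2.34-fold in C57BL/6J (log2 1.23 ± 0.11 SE, adjusted p = 2.21e-06) and 2.02-fold in 129S6/SvEvTac (log2 1.02 ± 0.11, adjusted p = 5.96e-05). Among the 17125 genes ordered by p it stood at rank 112 in C57BL/6J and rank 48 in 129S6/SvEvTac. The difference between the strains in this rise was 0.21 on the log2 scale (95% interval -0.12 to 0.54, adjusted p = 0.439), so it could not be shown to differ. Over 18 other settings and left-out libraries per strain the log2 change stayed between 1.13 and 1.31 in C57BL/6J and between 0.85 and 1.08 in 129S6/SvEvTac, and it was called in all of them. Of its exon length 24.57% lies opposite exons of Ctu2, a tRNA modification gene with 6832 counts over all libraries beside 57450 for Piezo1. No source used here says whether the counting used strand, so reads there may be shared.

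Ptk2 (ENSMUSG00000022607, chr15:73205102-73423280, minus strand), the kinase that integrin clustering activates, changed less. It had 71.1, 78.9, 68.4 and 69.6 CPM in C57BL/6J AngII libraries, against 59.2, 62.2, 58.8 and 63.1 CPM in C57BL/6J controls. In 129S6/SvEvTac AngII libraries it had 67.9, 88.7, 71.8 and 74.9 CPM, against 61.9, 52.4, 58.8 and 51 CPM in 129S6/SvEvTac controls. The groups did not overlap in either strain. The rise was 1.18-fold in C57BL/6J (log2 0.24 ± 0.09, adjusted p = 0.0391) and 1.35-fold in 129S6/SvEvTac (log2 0.44 ± 0.09, adjusted p = 0.00509). In 129S6/SvEvTac the call held in all 18 alternatives, whereas in C57BL/6J it held in 4 of 18. It was lost on leaving out any single library other than AngII replicate 3 (adjusted p = 0.0528 to 0.112), with no filter (0.0590), with voom (0.0521), with only the groups compared (0.0532) and with library size only (log2 0.15, adjusted p = 0.176).

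Of the co-activator genes, Yap1 was called in neither strain and Wwtr1 in 129S6/SvEvTac. Yap1 (ENSMUSG00000053110, chr9:7931999-8004596, minus strand) had 107, 135, 161 and 118 CPM in C57BL/6J AngII libraries, against 153, 145, 143 and 157 CPM in C57BL/6J controls. The 129S6/SvEvTac libraries had 156, 205, 161 and 176 CPM with AngII, against 145, 155, 159 and 166 CPM in controls. The groups overlapped in both strains. No change was called in C57BL/6J (log2 -0.20, 95% interval -0.44 to 0.04, adjusted p = 0.181) or in 129S6/SvEvTac (log2 0.16, interval -0.09 to 0.40, adjusted p = 0.429). In C57BL/6J it was lower and called without AngII replicate 3 (-0.31, adjusted p = 0.0227), with voom (-0.29, adjusted p = 0.0324) and with library size only (-0.29, adjusted p = 0.0306). The 129S6/SvEvTac estimate was -0.01 with library size only.

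Wwtr1 (ENSMUSG00000027803, chr3:57455649-57575910, minus strand) had 182, 207, 222 and 211 CPM in C57BL/6J AngII libraries, against 184, 185, 180 and 188 CPM in C57BL/6J controls. It had 196, 270, 191 and 246 CPM in 129S6/SvEvTac AngII libraries, against 175, 170, 171 and 183 CPM in 129S6/SvEvTac controls. The 129S6/SvEvTac groups did not overlap and the C57BL/6J groups did. The rise of 1.29-fold in 129S6/SvEvTac (log2 0.37 ± 0.10, adjusted p = 0.0262) was lost without AngII replicate 2, without AngII replicate 5 and without any 1 of the 4 controls (adjusted p = 0.0577 to 0.113), and was 0.20 on the log2 scale with library size only (adjusted p = 0.145). In C57BL/6J the estimate was 0.16 (adjusted p = 0.230).

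Ankrd1 (ENSMUSG00000024803, chr19:36111961-36120099, minus strand) encodes an ankyrin repeat protein that is induced by stretch in heart and skeletal muscle. It had 51.6, 43.9, 55.3 and 27.2 CPM in C57BL/6J AngII libraries, against 17.8, 13.2, 13.2 and 28 CPM in C57BL/6J controls. Ankrd1 in 129S6/SvEvTac had 65.5, 56.8, 59.1 and 97.2 CPM with AngII, against 20.3, 17.4, 65.9 and 28.1 CPM in controls. Most AngII libraries were high in both strains, with 1 overlapping control in each. The fold was 2.47 in C57BL/6J (log2 1.30 ± 0.39, adjusted p = 0.0143) and 2.12 in 129S6/SvEvTac (log2 1.08 ± 0.38, adjusted p = 0.0800), and only the first was called. DESeq2 and voom called the second too (adjusted p = 0.0256 and 0.0165). The C57BL/6J call was lost without control replicate 2 (adjusted p = 0.0517).

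The 129S6/SvEvTac libraries with the highest Ankrd1 in their group, AngII replicate 5 and control replicate 3, are also those with the most striated muscle RNA. In C57BL/6J this did not hold. AngII replicate 1, with 251 CPM of striated markers, had 51.6 CPM of Ankrd1. AngII replicate 3 had 55.3 CPM of Ankrd1 with 35.9 CPM of striated markers. Without control replicate 3 the rise in 129S6/SvEvTac was 1.67 on the log2 scale (adjusted p = 0.00547). Without that library, AngII replicate 5 and C57BL/6J AngII replicate 1, the log2 rise was 1.21 ± 0.28 in C57BL/6J (adjusted p = 0.0062) and 1.46 ± 0.31 in 129S6/SvEvTac (adjusted p = 0.0168). The difference between strains was 0.22 (95% interval -0.92 to 1.36, adjusted p = 0.848) with all libraries and -0.25 without those 3.

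**Figure D2:**
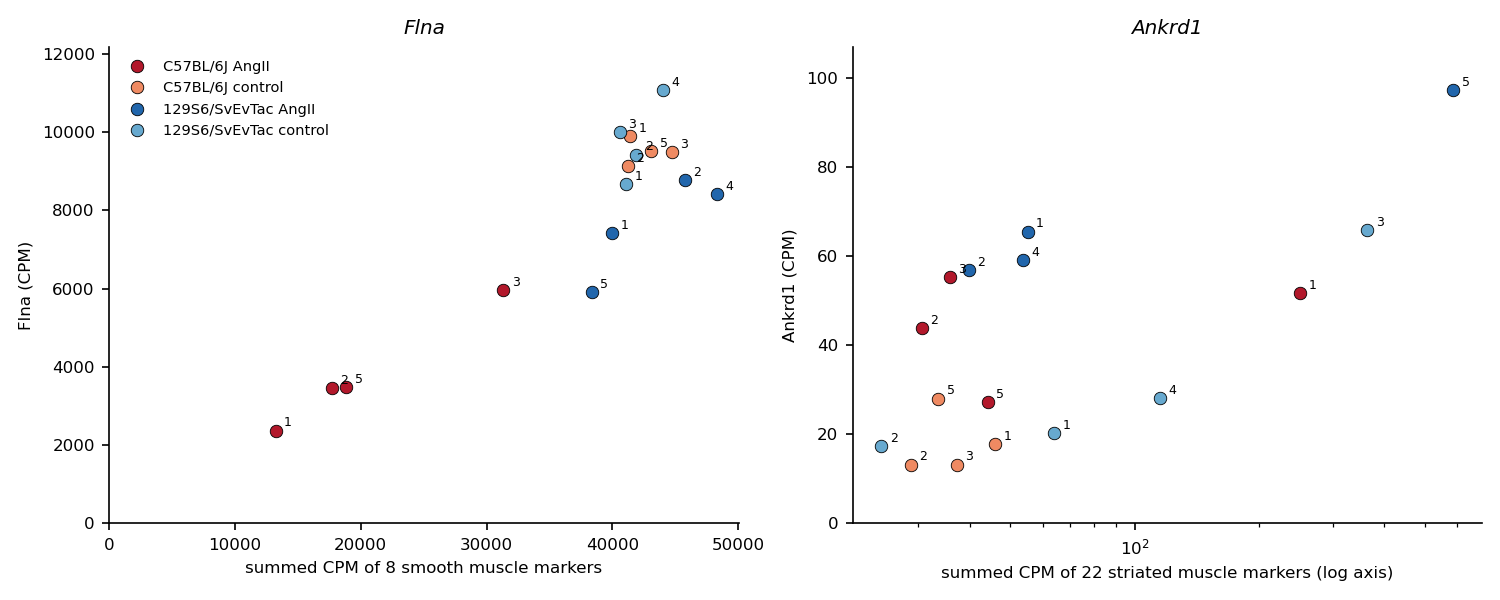
Left: Flna against the summed level of 8 smooth muscle markers, both in CPM. Right: Ankrd1 (CPM) against the summed level of 22 striated muscle markers (CPM, log axis). Each point is a library, numbered by replicate. The 4 C57BL/6J AngII libraries lie lowest in smooth muscle markers, and the 3 libraries at 251 CPM or more of striated markers have 51.6 to 97.2 CPM of Ankrd1.

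Of the 5 genes of adhesion proteins and crosslinkers, Zyx, Flna and Actn1 fell in C57BL/6J, and Vcl and Flnc were not called. Flna (ENSMUSG00000031328, chrX:74223461-74249820, minus strand), which crosslinks actin into networks and binds integrin tails, had 2370, 3462, 5957 and 3489 CPM in C57BL/6J AngII libraries, against 9908, 9128, 9498 and 9513 CPM in C57BL/6J controls. Flna in 129S6/SvEvTac had 7431, 8766, 8427 and 5910 CPM with AngII, against 8683, 9428, 10001 and 11070 CPM in controls. The C57BL/6J groups lay far apart and the 129S6/SvEvTac groups overlapped. It fell 2.49-fold in C57BL/6J (log2 -1.32 ± 0.21, adjusted p = 0.000202), a call that held in all 18 alternatives. The estimate in 129S6/SvEvTac was -0.36 (95% interval -0.81 to 0.09, adjusted p = 0.308).

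Zyx (ENSMUSG00000029860, chr6:42349630-42360213, plus strand), whose LIM-domain protein moves to strained actin bundles and adhesions, had 270, 286, 410 and 342 CPM in C57BL/6J AngII libraries, against 877, 801, 583 and 631 CPM in C57BL/6J controls. It had 757, 839, 606 and 556 CPM in 129S6/SvEvTac AngII libraries, against 832, 519, 895 and 583 CPM in 129S6/SvEvTac controls. Every C57BL/6J AngII library lay below every control, and the 129S6/SvEvTac ranges nearly coincided. It fell 2.21-fold in C57BL/6J (log2 -1.14 ± 0.20, adjusted p = 0.000422), also in all 18 alternatives. In 129S6/SvEvTac the estimate was -0.04 ± 0.20 (adjusted p = 0.940), with a sign that turned under several alternatives.

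Vcl (ENSMUSG00000021823, chr14:20929398-21033676, plus strand), which strengthens the talin to actin link under tension, had 487, 652, 898 and 474 CPM in C57BL/6J AngII libraries, against 834, 803, 840 and 834 CPM in C57BL/6J controls. It had 1157, 1256, 1392 and 1119 CPM in 129S6/SvEvTac AngII libraries, against 905, 844, 867 and 901 CPM in 129S6/SvEvTac controls. Replicate 3 alone of the C57BL/6J AngII libraries lay above its controls, whereas all 129S6/SvEvTac AngII libraries did. Neither change was called, at -0.40 ± 0.16 in C57BL/6J (adjusted p = 0.0550) and 0.49 ± 0.16 in 129S6/SvEvTac (adjusted p = 0.0555). Without C57BL/6J AngII replicate 3 the C57BL/6J estimate was -0.61 and called (adjusted p = 0.000329), and it was called in 6 of 18 alternatives in all. The 129S6/SvEvTac rise was called in 5 of 18, among them DESeq2 (adjusted p = 0.0195), voom (0.00266) and only the groups compared (0.0045). Exons of Ap3m1 on the opposite strand cover 25.52% of its exon length, with 58144 counts beside 764628 for Vcl.

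Actn1 (ENSMUSG00000015143, chr12:80167547-80260371, minus strand), the crosslinker of stress fibres and adhesions, had 1048, 1513, 1859 and 1203 CPM in C57BL/6J AngII libraries, against 1869, 1738, 1894 and 1909 CPM in C57BL/6J controls. It had 2175, 2591, 2650 and 2205 CPM in 129S6/SvEvTac AngII libraries, against 1782, 1837, 1847 and 1965 CPM in 129S6/SvEvTac controls. The C57BL/6J groups overlapped through replicate 3, and the 129S6/SvEvTac AngII libraries all lay above their controls. It fell 1.32-fold in C57BL/6J (log2 -0.40 ± 0.14, adjusted p = 0.0347), a call that was lost without AngII replicate 1 or 5 or control replicate 1, 3 or 5 (adjusted p = 0.0584 to 0.0872) and held in 10 of 18 alternatives in all. In 129S6/SvEvTac the estimate was 0.37 ± 0.14 (adjusted p = 0.100), and it was called with voom (adjusted p = 0.0128) and with only the groups compared (0.0188).

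Flnc (ENSMUSG00000068699, chr6:29433256-29461883, plus strand), the filamin best known from the Z-discs of striated muscle, was the most variable member in C57BL/6J AngII libraries, at 186, 413, 590 and 204 CPM, against 420, 384, 429 and 432 CPM in C57BL/6J controls. Flnc in 129S6/SvEvTac had 609, 563, 647 and 706 CPM with AngII, against 352, 357, 381 and 327 CPM in controls. All 129S6/SvEvTac AngII libraries lay above all controls, but the change there, 1.78-fold (log2 0.83 ± 0.27), missed the threshold (adjusted p = 0.0533). It was called with DESeq2 (adjusted p = 0.0138) and when only those groups were fitted (adjusted p = 0.00041). The estimate in C57BL/6J was -0.26 ± 0.26 (adjusted p = 0.469), and -0.63 without AngII replicate 3 (adjusted p = 0.0249). In the libraries with most striated muscle RNA Flnc was lowest of its group in C57BL/6J AngII replicate 1 (186 CPM) and highest in 129S6/SvEvTac AngII replicate 5 (706 CPM) and control replicate 3 (381 CPM).

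Within the C57BL/6J AngII group, replicate 3 had the highest level of 8 members and the lowest level of the other 2, Piezo1 and Ptk2. It also had the highest summed smooth muscle markers of that group, 31336 CPM against 13233, 17729 and 18854 CPM in replicates 1, 2 and 5. Replicate 1, lowest in smooth muscle markers, was lowest in Yap1, Wwtr1, Zyx, Flna, Flnc and Actn1. Its adipocyte marker sum was 4101 CPM, against 192 CPM in replicate 3. The within-group coefficient of variation in C57BL/6J AngII libraries was 54.9% for Flnc, 39.7% for Flna, 31.5% for Vcl and 25.5% for Actn1. In C57BL/6J controls it was 5.36% for Flnc, 3.35% for Flna, 2.04% for Vcl and 4.21% for Actn1.

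**Figure D3:**
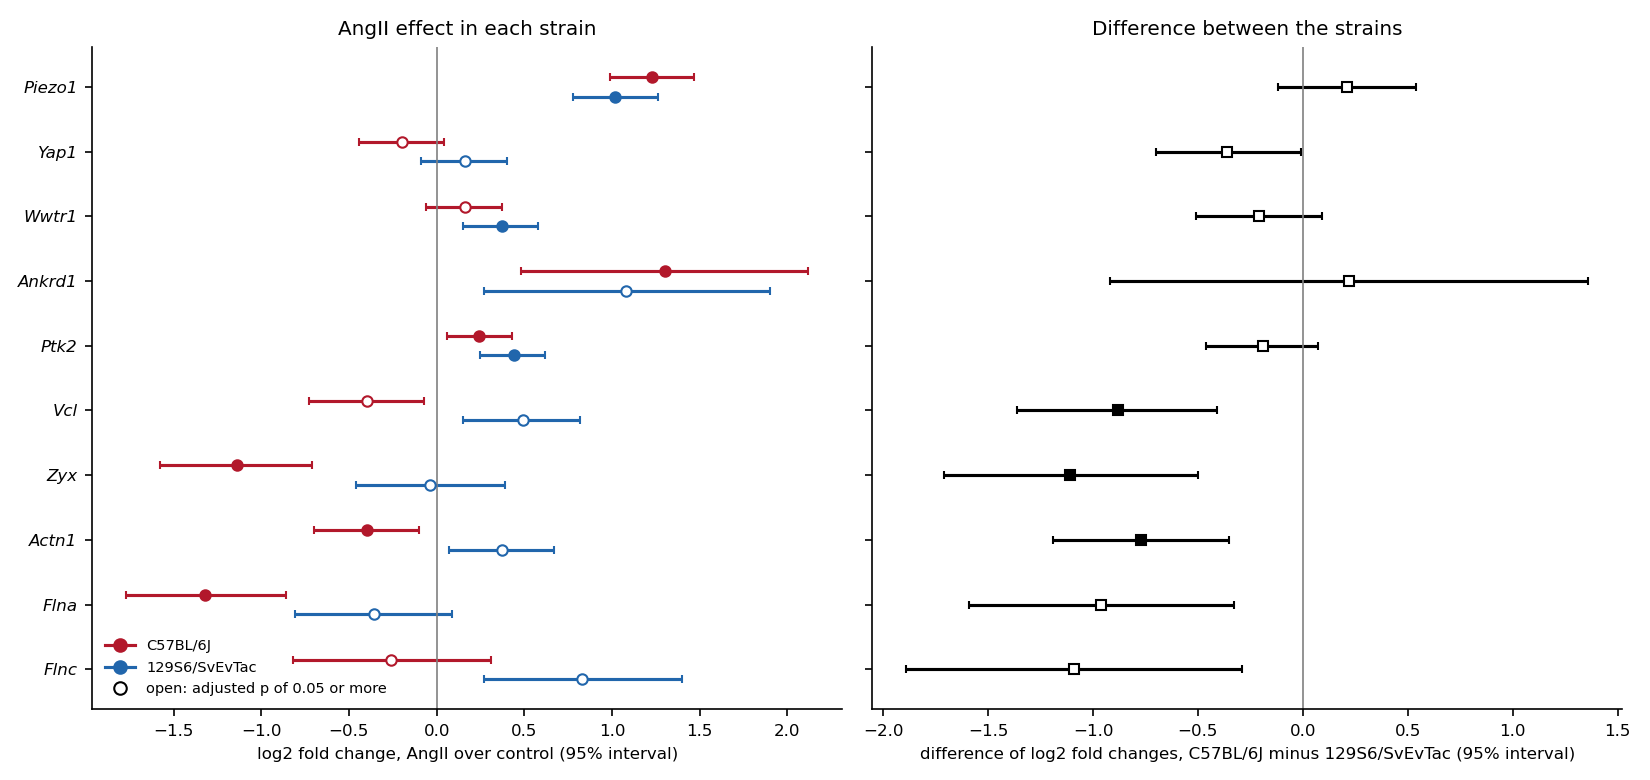
Left: log2 fold change of AngII over control in C57BL/6J (upper point of each pair) and 129S6/SvEvTac (lower point), with 95% intervals, filled where the adjusted p is below 0.05. Right: the C57BL/6J change minus the 129S6/SvEvTac change, filled for Vcl (-0.88), Zyx (-1.11) and Actn1 (-0.77).

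The second question was whether the strains responded differently. Vcl, Zyx and Actn1 did: their AngII effect was lower in C57BL/6J than in 129S6/SvEvTac, and none of the 10 was called the other way. These 3 of 10 compare with 9.96% of all tested genes (5.34% higher and 4.62% lower). The difference was -0.88 ± 0.22 for Vcl (adjusted p = 0.0219), -1.11 ± 0.28 for Zyx (adjusted p = 0.0245) and -0.77 ± 0.20 for Actn1 (adjusted p = 0.0247), all log2. For Flna it was -0.96 ± 0.30 (adjusted p = 0.0535) and for Flnc -1.09 ± 0.38 (adjusted p = 0.0782), which missed the threshold and passed it once C57BL/6J AngII replicate 3 was left out (adjusted p = 0.00162 and 0.00348). Flna also passed without 129S6/SvEvTac AngII replicate 5 (adjusted p = 0.0423). With all libraries both passed with DESeq2 (adjusted p = 0.013 for Flna and 0.0271 for Flnc) and voom (0.00216 and 0.0015). In all, the difference was called in 7 of 25 alternatives for Flna and 3 of 25 for Flnc. The median difference over the 10 genes was -0.56, against 0.017 over all genes. The Zyx call did not hold on omitting C57BL/6J AngII replicate 1, C57BL/6J control replicate 1 or 129S6/SvEvTac control replicate 2 (adjusted p = 0.0506 to 0.056), and the Actn1 call without 129S6/SvEvTac AngII replicate 4 or control replicate 1 or 2 (adjusted p = 0.0504 to 0.0568). The Vcl call held on leaving out each library in turn. Without the 3 libraries with most striated muscle RNA the Vcl and Actn1 calls were lost, at -0.83 and -0.70 (adjusted p = 0.0687 and 0.0618). Beside these values, 7 of 8 smooth muscle markers also had a lower AngII effect in C57BL/6J and 8 of 8 macrophage markers a higher one.

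Between the strains at baseline no member was called, against 10.4% of all tested genes called (5.35% higher and 5.06% lower). With edgeR 2 of the 10 had an unadjusted p below 0.05, and DESeq2 and limma voom also called none. Fitting the control groups alone called Flnc, which averaged 416 ± 22.3 CPM in C57BL/6J controls, against 354 ± 22.2 CPM in those of 129S6/SvEvTac (SD, n = 4 each), a log2 difference of 0.23 (adjusted p = 0.0328). Actn1 averaged 1853 ± 78 CPM in C57BL/6J and 1858 ± 76.9 CPM in 129S6/SvEvTac controls, and the 95% interval of its log2 difference ran from -0.30 to 0.29. For Vcl the interval was -0.42 to 0.24 and for Flna -0.49 to 0.40. The widest was that of Ankrd1, -1.68 to -0.05 (18 ± 6.99 CPM in C57BL/6J and 32.9 ± 22.4 CPM in 129S6/SvEvTac controls, adjusted p = 0.189). Its log2 difference was -0.87, and -0.28 without 129S6/SvEvTac control replicate 3 (adjusted p = 0.697), 1 of the libraries with most striated muscle RNA.

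With AngII the strains stood apart in 7 of the 10 genes, against 31.3% of all tested genes (16.8% higher and 14.6% lower). Piezo1 was higher in C57BL/6J, and Yap1, Vcl, Zyx, Flna, Flnc and Actn1 were lower. Piezo1 averaged 104 ± 15.2 CPM in C57BL/6J AngII and 76.5 ± 7.44 CPM in 129S6/SvEvTac AngII libraries (SD, n = 4 each; log2 0.45 ± 0.11, adjusted p = 0.00618). Vcl averaged 628 ± 198 CPM in C57BL/6J AngII and 1231 ± 122 CPM in 129S6/SvEvTac AngII libraries, and the 2 groups did not overlap (log2 -0.97 ± 0.16, adjusted p = 0.000283). Zyx averaged 327 ± 63.3 CPM in C57BL/6J AngII and 690 ± 131 CPM in 129S6/SvEvTac AngII libraries (log2 -1.08 ± 0.20, adjusted p = 0.000878). The remaining differences in log2 were -1.0 for Flna (adjusted p = 0.00212), -0.77 for Actn1 (adjusted p = 0.000691), -0.86 for Flnc (adjusted p = 0.0227) and -0.42 for Yap1 (adjusted p = 0.0111). Flnc lost its call on omitting C57BL/6J AngII replicate 1 or 5 or 129S6/SvEvTac AngII replicate 5 (adjusted p = 0.0501 to 0.0636). The Yap1 groups overlapped, and its call held in 15 of 18 alternatives. It was lost with only the groups compared (adjusted p = 0.072) and without the 3 libraries with most striated muscle RNA (0.0715). It was also lost without both C57BL/6J AngII replicate 1 and 129S6/SvEvTac AngII replicate 5 (0.0663). Ankrd1 was lower in every C57BL/6J AngII library than in every 129S6/SvEvTac AngII library but was not called (log2 -0.65, adjusted p = 0.219). This comparison shares its AngII libraries with those above and is not separate evidence.

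Per kilobase of annotated exon, which allows levels of different genes to be set side by side, the order in C57BL/6J controls was Flna at 1012 ± 33.9 CPM per kb, Actn1 at 335 ± 14.1, Zyx at 134 ± 25.8, Vcl at 101 ± 2.06, Flnc at 44.3 ± 2.38, Wwtr1 at 38.6 ± 0.716, Yap1 at 16.2 ± 0.719, Ankrd1 at 6.25 ± 2.42, Ptk2 at 5.15 ± 0.181 and Piezo1 at 4.49 ± 0.392 (SD, n = 4). The length merges all annotated exons of a gene, whichever transcripts were expressed, so comparisons between genes depend on the annotation. In this order the last 3 were not separated: Ankrd1 ran from 4.56 to 9.7 CPM per kb, Ptk2 from 4.98 to 5.34 and Piezo1 from 4.11 to 4.98. The crosslinker Flna was thus the most abundant of the 10 per length in every group, and stayed so at 406 ± 161 CPM per kb in C57BL/6J AngII libraries. With AngII Piezo1 stood at 10.5 ± 1.53 CPM per kb in C57BL/6J, above Ptk2 at 6.1 ± 0.402. In 129S6/SvEvTac controls the order was the same, with Zyx (96.3 to 166) overlapping Vcl (103 to 111), and Flnc (34.7 to 40.5) overlapping Wwtr1 (35.6 to 38.3). Ankrd1 (6.02 to 22.8) spanned Yap1 (15.7 to 17.9) there, and Ptk2 (4.32 to 5.24) overlapped Piezo1 (3.49 to 4.34).

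Near relatives were compared within each library as ratios of CPM per kb, with an exact two-sided permutation test whose smallest p with 4 against 4 libraries is 0.0286. None of 12 comparisons passed adjustment over the 12, and the smallest adjusted p was 0.0571. With that smallest p, none could pass unless most of the 12 reached it, so the lack of a pass does not show equal ratios. TAZ to YAP (Wwtr1 to Yap1) ran from 2.67 to 3.47 in C57BL/6J AngII libraries, against 2.32 to 2.47 in C57BL/6J controls, without overlap (exact permutation p = 0.0286). It ran from 2.3 to 2.71 in 129S6/SvEvTac AngII libraries, against 2.08 to 2.34 in 129S6/SvEvTac controls, with overlap (exact permutation p = 0.0571). The muscle filamin relative to the general one (Flnc to Flna) ran from 0.0583 to 0.119 in C57BL/6J AngII libraries, against 0.042 to 0.0454 in C57BL/6J controls, and from 0.0643 to 0.119 in 129S6/SvEvTac AngII libraries, against 0.0295 to 0.0405 in 129S6/SvEvTac controls. That ratio was thus above the controls in every AngII library of both strains (exact permutation p = 0.0286 in each). It also separated the controls, being higher in all C57BL/6J than in all 129S6/SvEvTac controls (log2 difference 0.27, exact permutation p = 0.0286). Actn4, the other non-muscle alpha-actinin, relative to Actn1 ran from 0.667 to 0.946 in C57BL/6J AngII libraries, against 0.494 to 0.584 in C57BL/6J controls, and from 0.591 to 0.678 in 129S6/SvEvTac AngII libraries, against 0.492 to 0.534 in 129S6/SvEvTac controls, again without overlap (exact permutation p = 0.0286 in each).

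**Figure D4:**
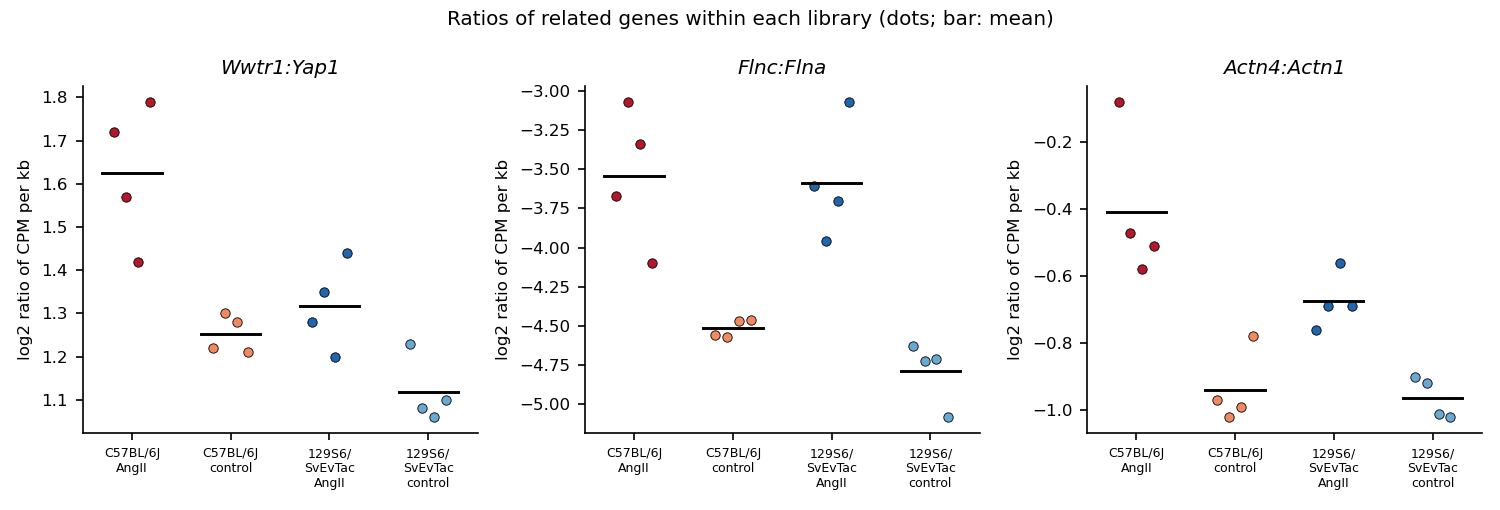
Log2 ratio of CPM per kb within each library (dots; bar, mean of 4) for Wwtr1 to Yap1, Flnc to Flna and Actn4 to Actn1. The Flnc to Flna and Actn4 to Actn1 ratios of all AngII libraries lie above those of their own strain's controls.

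Genes of the same pathways were read from lists. Their counts are read against the share of all tested genes called, 38.9% in C57BL/6J (21.8% higher), 12.2% in 129S6/SvEvTac (7.71% higher) and 9.96% for the difference of the effects, and their medians against the all-gene medians of 0.009 and 0.003. Of 13 other genes listed as those of mechanically gated or flow-sensing channels, 10 were tested. With AngII 4 rose and 2 fell in C57BL/6J (median log2 change 0.14), and 1 rose in 129S6/SvEvTac (median 0.22), the last being no more than the 12.2% of all genes. Trpc6, Kcnk4 and Tmem63c lay below the filter, at 0.386 CPM or less. Piezo2, the relative of Piezo1 that serves touch sensation in neurons, averaged 95.6 ± 28.8 CPM in C57BL/6J AngII and 14.4 ± 2.57 CPM in C57BL/6J control libraries (SD, n = 4 each), a 6.63-fold rise (adjusted p = 6.52e-06). The 129S6/SvEvTac libraries averaged 26.4 ± 12 CPM with AngII and 14.6 ± 0.723 CPM in controls (adjusted p = 0.0532), and the difference of the effects was 1.87 ± 0.39 (adjusted p = 0.00878), or 1.74 without the 3 libraries with most striated muscle RNA (adjusted p = 0.0568). Trpm4, on this list although it encodes a calcium-activated cation channel, fell by 0.73 on the log2 scale in C57BL/6J (adjusted p = 0.000115). Tmem63a, an osmosensitive channel, fell by 0.59 there (adjusted p = 0.000112). Pkd1, which encodes polycystin-1, rose in 129S6/SvEvTac to 1203 ± 119 CPM, against 707 ± 76.5 CPM in controls (log2 0.77 ± 0.13, adjusted p = 0.00122).

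Of 21 genes of Hippo kinases, YAP/TAZ regulators and TEAD factors, 7 rose and 3 fell in C57BL/6J, against 38.9% of all genes called (median 0.23). In 129S6/SvEvTac 5 rose and 2 fell, against 12.2% (median 0.07). Tead3, one of the 4 TEAD genes, fell to 46 ± 14.4 CPM in C57BL/6J AngII libraries, against 91 ± 5.22 CPM in C57BL/6J controls (log2 -0.99 ± 0.16, adjusted p = 0.000188). In 129S6/SvEvTac it had 82.9 ± 9.51 CPM with AngII and 85 ± 4.09 CPM in controls, and the effects differed by -0.95 ± 0.22 (adjusted p = 0.0162). Map4k4, a kinase upstream of LATS, rose 1.98-fold in C57BL/6J (adjusted p = 5.87e-05), and Sav1, the scaffold of the Hippo kinases, 1.28-fold (adjusted p = 0.000645). In 129S6/SvEvTac Vgll4, which competes with YAP for TEAD, fell to 30.7 ± 3.99 CPM with AngII, against 48.4 ± 7.56 CPM in controls (adjusted p = 0.00547). There the kinase gene Stk4 rose 1.37-fold (adjusted p = 0.00856) and the scaffold gene Wwc2 1.38-fold (adjusted p = 0.00473). Wwc1, encoding the related scaffold KIBRA, differed between the strains without treatment, at 5.78 ± 0.364 CPM in C57BL/6J and 12.6 ± 0.873 CPM in 129S6/SvEvTac controls (log2 -1.12 ± 0.10, adjusted p = 1.19e-06). Amotl2, an angiomotin that binds YAP, differed likewise, at 51.9 ± 12.7 CPM in C57BL/6J and 116 ± 16.8 CPM in 129S6/SvEvTac controls (adjusted p = 0.000559).

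Among 21 other YAP/TAZ targets, 9 rose and 2 fell in C57BL/6J, against 21.8% of all genes higher and 17.1% lower (median 0.25). In 129S6/SvEvTac 6 rose and none fell, against 7.71% higher and 4.47% lower (median 0.20). Amotl2 and Lats2 are in both this list and that of the Hippo kinases and regulators, so the counts are not separate. Ccn2, a secreted matrix protein gene also known as connective tissue growth factor, rose in both strains, to 5415 ± 1983 CPM in C57BL/6J AngII libraries against 1990 ± 908 CPM in C57BL/6J controls, and to 5623 ± 479 CPM in 129S6/SvEvTac AngII libraries against 2187 ± 310 CPM in 129S6/SvEvTac controls. Those rises were 1.44 ± 0.28 (adjusted p = 0.000823) and 1.36 ± 0.28 (adjusted p = 0.00539) in log2, and their difference was 0.08 ± 0.39 (adjusted p = 0.927). Antisense exons cover 23.24% of Ccn2. The mean of Ccn1, another target on the list, rose in neither strain. It was 461 ± 234 CPM with AngII and 497 ± 356 CPM in controls in C57BL/6J. In 129S6/SvEvTac Ccn1 had 312 ± 93.7 CPM with AngII and 425 ± 54.3 CPM in controls. Amotl2 averaged 73.9 ± 13.8 CPM with AngII and 51.9 ± 12.7 CPM in controls in C57BL/6J. In 129S6/SvEvTac it had 93.5 ± 20.4 CPM with AngII and 116 ± 16.8 CPM in controls. Myof, a membrane repair gene, rose by 0.54 and 0.57 in C57BL/6J and 129S6/SvEvTac, and the growth factor gene Tgfb2 by 0.66 and 1.15, all called. Nuak2, a kinase gene, rose 5.05-fold in C57BL/6J (adjusted p = 7.61e-06), by 1.42 ± 0.35 more in log2 than in 129S6/SvEvTac (adjusted p = 0.0195). Igfbp3, which encodes a carrier of insulin-like growth factors, had 21.5 ± 10.6 CPM in C57BL/6J AngII and 3.03 ± 0.635 CPM in C57BL/6J control libraries (adjusted p = 0.000575). In 129S6/SvEvTac it had 9.57 ± 5.32 CPM with AngII and 18.2 ± 12.2 CPM in controls, and the effects differed by 3.76 ± 0.71 (adjusted p = 0.00581). Arhgef17, encoding a RhoA exchange factor, fell by 1.04 on the log2 scale in C57BL/6J (adjusted p = 5.25e-05).

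Of 23 integrin-linking and focal adhesion signalling genes, 6 rose and 7 fell in C57BL/6J, against 38.9% of all genes called (median 0.12). In 129S6/SvEvTac 2 rose and none fell, a share below the 12.2% of all genes (median 0.11). The difference of the effects was called for 10 of them, 3 higher and 7 lower in C57BL/6J, against 9.96% of all genes. Ptk2b, the PYK2 kinase related to the product of Ptk2, rose to 35.4 ± 3.15 CPM in C57BL/6J AngII libraries, against 10.8 ± 1.45 CPM in C57BL/6J controls (3.27-fold, adjusted p = 4.47e-06), and this rise was larger by 1.14 ± 0.24 in log2 than in 129S6/SvEvTac (adjusted p = 0.00944). The tensin genes Tns1 and Tns2, whose proteins tie integrins to actin, fell by 0.99 and 1.08 on the log2 scale in C57BL/6J. Lims2, of the ILK complex, fell by 0.99 there, and Tgfb1i1, the paxillin relative Hic-5, by 0.94. For Tns1, Tns2, Lims2 and Tgfb1i1 the effect was lower in C57BL/6J than in 129S6/SvEvTac, by 1.25, 0.81, 1.23 and 0.96 in log2 (adjusted p = 0.00285, 0.00723, 0.00183 and 0.00207). In 129S6/SvEvTac the adaptor gene Bcar1 rose to 90.5 ± 15.9 CPM with AngII, against 55.2 ± 7.05 CPM in controls (adjusted p = 0.0122).

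Of 23 other crosslinkers and zyxin-related LIM protein genes, 5 rose and 8 fell in C57BL/6J, against 38.9% of all genes called (median -0.30). In 129S6/SvEvTac 8 rose and none fell, against 12.2% (median 0.32). The difference of the effects was called for 10, 2 higher and 8 lower in C57BL/6J, against 9.96% of all genes. Palld, encoding the actin-bundling protein palladin, rose in both strains, to 208 ± 13.6 CPM in C57BL/6J AngII libraries against 96.7 ± 12.6 CPM in C57BL/6J controls, and to 202 ± 17.1 CPM in 129S6/SvEvTac AngII libraries against 108 ± 12.1 CPM in 129S6/SvEvTac controls (adjusted p = 2.92e-06 and 8.21e-05). Lima1 and Evl, an actin bundler and a relative of VASP, rose 2.12-fold and 2.48-fold in C57BL/6J, and both effects were larger there than in 129S6/SvEvTac (adjusted p = 0.0111 and 0.0135). The difference for Lima1 was lost without the 3 libraries with most striated muscle RNA (adjusted p = 0.0714). Csrp1, a LIM protein gene of smooth muscle, fell to 1396 ± 541 CPM in C57BL/6J AngII libraries, against 3038 ± 216 CPM in C57BL/6J controls, and had 3743 ± 274 CPM with AngII and 3382 ± 96.5 CPM in controls in 129S6/SvEvTac (difference of effects -1.27 ± 0.26, adjusted p = 0.00944). Sorbs3, which encodes the vinculin partner vinexin, fell by 0.43 in C57BL/6J and rose by 0.33 in 129S6/SvEvTac, a difference of -0.76 ± 0.12 (adjusted p = 0.00204). The rise in 129S6/SvEvTac held in 5 of 8 omissions of a library. Actn4 and the vinculin partner gene Sorbs2 rose in 129S6/SvEvTac by 0.67 and 1.07 in log2 (adjusted p = 0.00328 and 0.00904).

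Ankrd23, of the same muscle ankyrin repeat family as Ankrd1, had 4.68 ± 0.612 CPM in C57BL/6J AngII and 8.87 ± 0.349 CPM in C57BL/6J control libraries. In 129S6/SvEvTac it had 15.2 ± 3.55 CPM with AngII and 8.77 ± 1.83 CPM in controls. It thus fell in C57BL/6J (log2 -0.92 ± 0.17, adjusted p = 0.000617) and rose in 129S6/SvEvTac (log2 0.80 ± 0.17, adjusted p = 0.00691), and the effects differed by -1.72 ± 0.24 (adjusted p = 0.00117). Another gene model on the same strand shares 78.2% of its exon length, so its counts are uncertain. Ankrd2, the third gene of that family, had no count in any library.

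**Figure D5:**
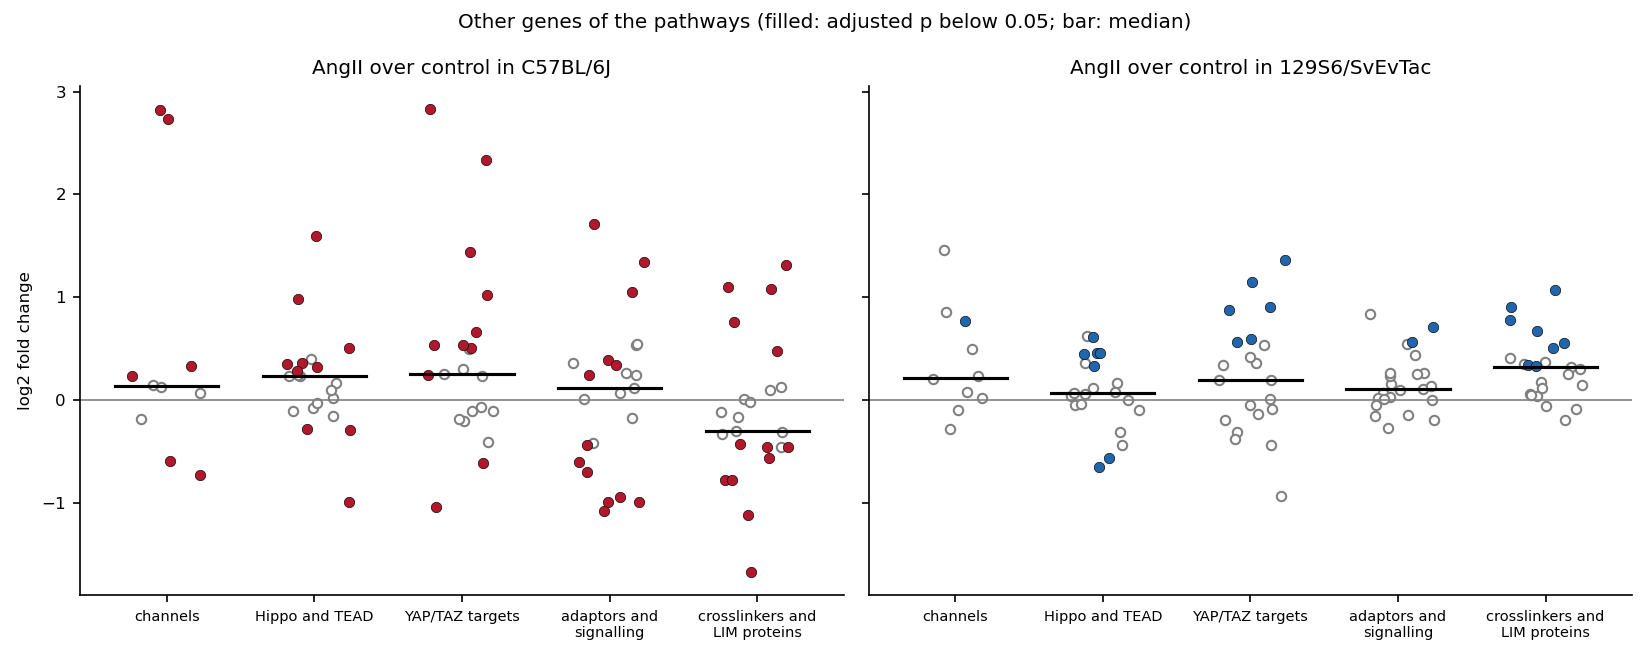
Log2 fold change of AngII over control in C57BL/6J (left) and 129S6/SvEvTac (right) for the tested genes of 5 lists, filled where called, with the median as a bar. The adaptor list has 6 higher and 7 lower calls in C57BL/6J, and the crosslinker list has 8 higher and no lower call in 129S6/SvEvTac.

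The genes most like each member were read from Pearson's r of log2 CPM over the 16 libraries, among the 10859 tested genes averaging 5 CPM or more. The libraries fall into 4 groups, so r carries the group differences and is a description. Piezo1 was most like Glis3 (r = 0.992, and 0.868 within groups), with Ccna2 and Tpm4 next. Vcl was most like Wtip (r = 0.965), Actn1 like Ctnna1 (r = 0.972) and Flna like Scube3 (r = 0.984), with Bves and Mylk next. Ankrd1 was most like the sarcomeric alpha-actinin gene Actn2 (r = 0.915, and 0.958 within groups), which is 1 of the 22 striated muscle markers. Yap1 was most like Btbd7 (r = 0.962), Wwtr1 like Ccny (r = 0.937), Zyx like Birc2 (r = 0.920), Flnc like Arl6ip5 (r = 0.936) and Ptk2 like Lrrc8c (r = 0.924). Among the members themselves Vcl and Actn1 were closest (r = 0.978, and 0.937 within groups), whereas Piezo1 and Flna ran opposite (r = -0.839, and -0.449 within groups).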

How the data were processed

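Per the labels' protocols, reads from total RNA of whole descending thoracic aorta were aligned by the authors to GRCm38 (mm10) with HISAT2, and StringTie with a Gencode annotation gave the deposited expected counts of each gene, which hold whole numbers. DESeq2 1.26.0 and R 3.6.2 are named, without a role, per the submitters' processing notes. Neither the Gencode release nor strandedness is stated there. Names, positions and exon lengths come from GENCODE M21, which matched 52403 of 52636 genes, and 233 had no name (0.033 to 0.0431% of counts). The filter kept genes with filterByExpr at a minimum count of 10, which left 17125.

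The test was edgeR 4.0.16 under R 4.3.3 (TMM scaling, robust quasi-likelihood fit, 1 mean per group over 16 libraries), with an adjusted p threshold of 0.05. Standard errors derive from the F statistic. CPM use TMM-adjusted totals, and log2 CPM a prior count of 2. Ratios were tested with SciPy 1.17.1. The alternatives were scaling by RLE or by library size only, filtering at 1 CPM in 4 samples or not at all, DESeq2 1.42.0, limma 3.58.1 voom with sample weights, a fit of just the groups compared, a replicate block, and left-out libraries. Leaving out the 3 libraries with most striated muscle RNA was chosen after seeing the data. The pipeline was tested on simulated data. No 2 replicates agreed within sampling noise.

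The members and lists were chosen with earlier results of these data known. All members were named. From each list up to 3 called genes per comparison were taken by p, and of these the text describes genes whose call held in every left-out library in at least 1 comparison, a restriction added after seeing the data. Ccn1 was added outside this rule. Promoters are from RefSeq.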

Additional observations from a re-analysis of the deposited data

Results flagged for a closer look

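The difference between the strains in the AngII effect was called for Vcl (-0.88), Zyx (-1.11) and Actn1 (-0.77 in log2, C57BL/6J minus 129S6/SvEvTac), which flagged these genes as responding differently in the 2 strains.

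Of 88 sets of 4 libraries examined with Dixon's gap test, 6 had a library standing apart, where about 1 in 20, or 4.4, is given by chance. Among the members the only one was Vcl, for which C57BL/6J control replicate 2 stood below the other 3 controls (803 CPM against 834 to 840 CPM, gap over range 0.838). The summed striated muscle markers stood apart in C57BL/6J AngII replicate 1 (0.938) and 129S6/SvEvTac AngII replicate 5 (0.972). In C57BL/6J controls the lymphocyte markers (0.873) and red blood cell markers (0.887) stood apart in replicate 3, and the adipocyte markers in replicate 1 (0.879).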

How the results depend on the processing

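Over 480 combinations of member, comparison and setting other than single left-out libraries, 416 kept direction and call, 23 lost the call, 32 gained it and 9 changed sign. With 1 library left out the counts were 432, 28, 8 and 12 of 480. The number of members called with AngII in 129S6/SvEvTac, 3, became 6 with DESeq2, 7 with voom and 5 with only the groups compared. For the difference between strains it went to 5 with DESeq2, 6 with voom and 1, Zyx, without the 3 libraries with most striated muscle RNA. For strain in controls it became 1 with only the groups compared. With 1 library left out the counts ran from 4 to 9 (C57BL/6J), 2 to 3 (129S6/SvEvTac), 1 to 6 (difference), 0 to 0 (strain, controls) and 6 to 7 (strain, AngII). The 6 came without C57BL/6J AngII replicate 3 and the 1 without 129S6/SvEvTac control replicate 2. The cause was not tested.

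Sign changes concerned estimates near 0 or wide ones, none of them called. They were Yap1 in 129S6/SvEvTac (-0.01, library size only), Zyx in 129S6/SvEvTac (0.01 voom, 0.05 replicate block, 0.03 without 2 libraries, 0.18 without 3, -0.18 to 0.09 in single omissions, of which 0.03, 0.03 and 0.09 were above 0), and the Ankrd1 difference (-0.11 voom, -0.25 without 3 libraries, -0.39 without 129S6/SvEvTac control replicate 3, and up to 0.49 in other omissions). In controls between strains they were Flna (0.06 block, 0.02 without 1 library), Actn1 (0.06 block, -0.03 to 0.03 in omissions) and Zyx (-0.10, -0.08, -0.06 and -0.02, of a range from -0.10 to 0.17). With AngII between strains it was Ptk2 (0.01).

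Over all genes, the called number in 129S6/SvEvTac, 2087, became 3324 with voom and 1110 without 3 libraries. The number for the difference, 1706, became 2685 with DESeq2, 2670 with voom, 1049 without 2 libraries and 671 without 3. In controls 1783 became 3209 with voom and 2772 with only the groups compared. Library size alone moved the median log2 change in 129S6/SvEvTac from 0.003 to -0.157, and the share of higher calls to 45.4% from 56.1% (C57BL/6J), 25.2% from 63.3% (129S6/SvEvTac) and 65.2% from 53.6% (difference). Same-numbered libraries correlated at -0.06 to 0.146, so the numbers were not taken as pairs, and the replicate block called 6, 4, 4, 0 and 7 members and 6175, 1426, 1590, 1383 and 4459 genes over the 5 comparisons. With 4 libraries a group, the intervals printed set what could be seen.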
